A study of Homo sapiens with 10 samples.

Results

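The comparison asks what the Rhesus monkey (mmu) FOXP2 cDNA does to the transcriptome of SH-SY5Y cells when it is set against the empty expression vector. SH-SY5Y is a human neuroblastoma line of sympathetic origin. It involved 4 of the 10 RNA-seq libraries of the study, chosen by the transfection state given in the sample labels: 2 mmuFOXP2 libraries and 2 pcDNA3 libraries, 1 of each from the transfections called replicates A and B. mmuFOXP2 cells were stably transfected with pcDNA3 carrying the Rhesus monkey FOXP2 cDNA, and pcDNA3 cells with the plasmid alone. All cells were nucleofected with linearized plasmid and kept under geneticin, the antibiotic to which the vector gives resistance, so selection is common to both groups. The other 6 libraries carried the human (hsa), chimpanzee (ptr) or marmoset (cja) cDNA. Poly(A) RNA was sequenced, and the level of a gene is given as BPKM, a read density scaled to transcript length and library size and computed on bases, averaged over the transcripts that share a gene symbol. The sources used here do not say whether a transfected line is a mixture or the offspring of single cells. The vector carries its own promoter, so FOXP2 RNA here is not under the control of the FOXP2 gene.

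FOXP2 is a forkhead transcription factor that mostly represses its targets and is studied for its part in speech, vocal learning and the growth of neurites. It binds DNA through its forkhead domain and as a dimer with itself or with FOXP1 and FOXP4. Noradrenergic cells, to which SH-SY5Y belongs, are recognized by the enzymes that make noradrenaline, by the granins that fill their dense-core vesicles, and by a set of transcription factors that holds this identity. In the branch-wise list of codon exchanges that accompanies the study, 0 of the 4 exchanges on the Rhesus monkey branch and 0 of the 8 on the chimpanzee branch alter an amino acid, whereas 2 on the human branch do, T303N and N325S (ancestral residue, codon number, human residue). Apart from the length of a glutamine stretch, mmuFOXP2 and ptrFOXP2 thus differ in silent positions.

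The promoter stretches of 3 genes are shown first because CHGA, SCG3 and DBH are among those with the largest differences described here. They are the 250 bases before the start site, from RefSeq (GRCh38.p14), in lower case. Capitals mark any match to TGACGTCA (the cyclic AMP response element), CAAATT (a FOXP2 core motif), TGTTTAC (a forkhead motif), or TTCAGCACC and GGACAGCG (parts of the element bound by the neuronal repressor REST), searched on both strands.
CHGA, chr14:92922900-92923149, plus strand: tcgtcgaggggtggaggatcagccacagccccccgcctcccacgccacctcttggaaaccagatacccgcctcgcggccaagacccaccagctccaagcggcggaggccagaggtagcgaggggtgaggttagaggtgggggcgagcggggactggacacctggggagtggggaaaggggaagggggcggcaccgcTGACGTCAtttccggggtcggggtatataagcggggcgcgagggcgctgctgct
SCG3, chr15:51681253-51681502, plus strand: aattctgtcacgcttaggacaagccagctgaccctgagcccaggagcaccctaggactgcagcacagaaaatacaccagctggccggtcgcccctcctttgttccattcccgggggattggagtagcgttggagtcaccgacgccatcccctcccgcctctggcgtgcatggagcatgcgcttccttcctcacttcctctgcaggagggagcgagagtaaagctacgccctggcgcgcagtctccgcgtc
DBH, chr9:133636113-133636362, plus strand: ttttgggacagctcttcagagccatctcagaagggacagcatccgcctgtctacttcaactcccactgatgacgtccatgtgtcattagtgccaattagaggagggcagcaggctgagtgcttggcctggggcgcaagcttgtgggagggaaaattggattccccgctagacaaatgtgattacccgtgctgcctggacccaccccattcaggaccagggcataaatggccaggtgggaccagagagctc
The stretch of CHGA held 1 TGACGTCA, which 1.65% of 35116 human promoter stretches of this length held, and those of SCG3 and DBH held none of the motifs. CAAATT was found in 9.61% of all stretches, TGTTTAC in 2.98%, TTCAGCACC in 0.288% and GGACAGCG in 1.26%. The lack of a match says only that these letters are not in this window.

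FOXP2 RNA, the check of the transfection, was 30.2 BPKM in mmuFOXP2 A and 3.91 BPKM in mmuFOXP2 B. It was 0.0045 BPKM in pcDNA3 A and listed at 0 in pcDNA3 B. Both mmuFOXP2 libraries therefore held the transcript and neither pcDNA3 library did to any extent, but the replicates A and B differed 7.73-fold from each other (17.1 ± 18.6 BPKM, SD, n = 2). An exact two-sided permutation test of 2 libraries against 2 gave p = 0.333, the smallest value this design allows. In limma the difference was 6.75 log2 units (SE 1.16) with an adjusted p of 0.664, on the log2(BPKM + 0.1) scale. With a control group at about 0 this value was set by the pseudocount, being 3.63 with a pseudocount of 1 and 9.82 with 0.01. It was 10.2 with transcripts summed, and 5.29 without mmuFOXP2 A and 8.21 without mmuFOXP2 B. mmuFOXP2 A had the highest FOXP2 level of all 10 libraries. The 14 FOXP2 transcripts of the table did not all show the same gap, since the ratio of A to B ran from 1.83 to 9.53 among them.

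With limma (Benjamini-Hochberg adjusted p under 0.05) over 22238 genes, 0 genes (0%) were higher and 1 gene (0.0045%) was lower with mmuFOXP2. Without adjustment, p was under 0.05 for 141 higher genes (0.634%) and 551 lower genes (2.48%), 692 in all (3.11%). The gene that fell, DQ591726, is a transcript at the floor of the measurement, named here because it alone passed. It had 0.133 BPKM in both pcDNA3 libraries and is listed at 0 in mmuFOXP2 A and B (limma adjusted p = 0.0108). It passed the filter on low values only through the pcDNA3 libraries and had nearly no spread within groups, so its p is no support for a difference. It is also listed at 0 in the 6 other FOXP2 libraries, and 7 of the 10 alternative settings that tested it lost the call. Every other gene below is given by its values, none of which passed the test.

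Larger differences ran mostly downwards. Both mmuFOXP2 libraries lay above both pcDNA3 libraries in 2201 genes (9.9%) and below them in 3244 (14.6%). With median-ratio scaling of the libraries these were 2827 and 2947 genes, so the gap between the directions depended on the scaling. The shares of all genes set beside the gene lists below are those without this scaling. Also without it, 9.85% and 11.2% were apart among the 13563 genes with a group mean of at least 1 BPKM in either condition. Their median log2 difference was 0.016. Of these, 84 genes with all 4 libraries apart had a mean at least 2-fold lower with mmuFOXP2, and 15 at least 2-fold higher, FOXP2 included. The lower count ranged from 102 to 245 when a library was left out, the highest without mmuFOXP2 B. The higher count ranged from 38 to 79 when a library was left out, the highest again without mmuFOXP2 B. Fewer libraries are easier to find apart, so a rise in these counts was built in and the ranges do not measure stability.

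The rounds of transfection differed in most of what they showed. The difference mmuFOXP2 A minus pcDNA3 A and the difference mmuFOXP2 B minus pcDNA3 B, which share no library, correlated at r = 0.058 across 13368 genes averaging 1 BPKM or more, and 48.5% of genes had the same sign in both (genes are not independent replicates, so no p is given). Their SDs were 0.354 and 0.292 log2 units. At a size of 1 log2 unit or more in each round, 21 genes were lower in both, 2 were higher in both and 22 went in opposite directions. Differences of this size with the same sign in both rounds were thus mostly lower ones.

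**Figure D1:**
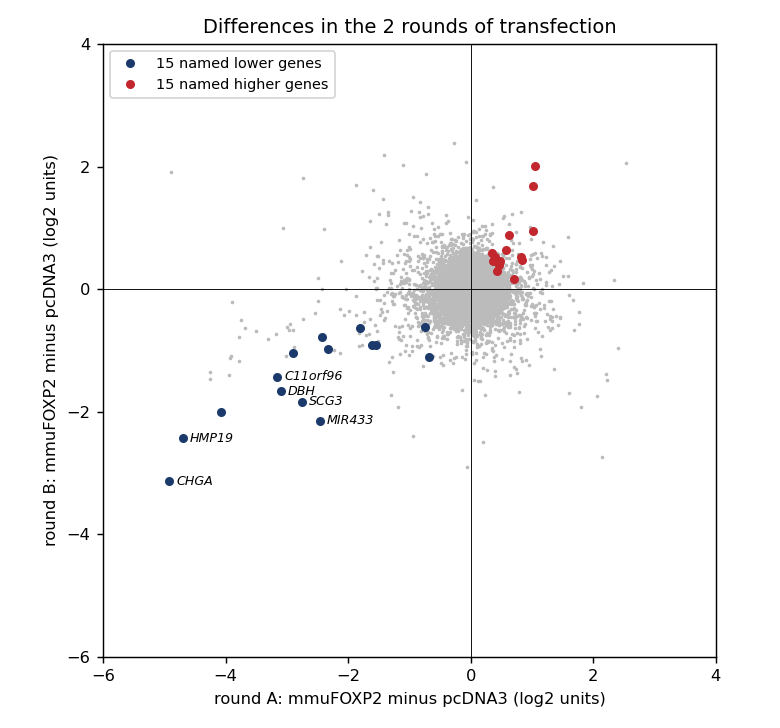
Each grey point is 1 of 13367 genes averaging 1 BPKM or more, plotted by its mmuFOXP2 minus pcDNA3 difference in round A (x axis) and round B (y axis), both in log2 units of BPKM + 0.1. FOXP2 lies outside the axes. The cloud shows no common trend (r = 0.058), while the named lower genes in blue reach down to -4.92 in round A and -3.13 in round B for CHGA; the named genes were chosen for having all 4 libraries apart.

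Of the 15 named lower genes, CHGA had the smallest p and the largest difference, and it is described first together with SCG3 and DBH. CHGA encodes chromogranin A, the main soluble protein of dense-core vesicles. It had 10.1 and 6.00 BPKM in pcDNA3 A and B, and 0.236 and 0.595 BPKM in mmuFOXP2 A and B. All 4 libraries stood apart, and the log2 difference was -4.03 (SE 0.69, limma adjusted p = 0.664). SCG3 encodes secretogranin III, which binds chromogranin A to the vesicle membrane. Its levels were 1.80 and 0.960 BPKM with pcDNA3, and 0.181 and 0.197 BPKM with mmuFOXP2. DBH encodes dopamine beta-hydroxylase, the enzyme that turns dopamine into noradrenaline. It had 4.15 and 1.79 BPKM with pcDNA3, against 0.396 and 0.498 BPKM with mmuFOXP2. The log2 differences of SCG3 and DBH were -2.30 (SE 0.48) and -2.38 (SE 0.52), and both had adjusted p of at least 0.664.

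HMP19 encodes a neuronal endosomal protein now also called NSG2. It had 8.42 and 3.52 BPKM with pcDNA3, and 0.227 and 0.571 BPKM with mmuFOXP2, a log2 difference of -3.57 (SE 0.81). In each of CHGA, SCG3, DBH and HMP19 the lowest of the 4 libraries was mmuFOXP2 A, the one with most FOXP2 RNA, and the highest was pcDNA3 A. GNG8, a gamma subunit of heterotrimeric G proteins, had 1.76 and 1.13 BPKM with pcDNA3 against 0.149 and 0.496 BPKM with mmuFOXP2. LRRN3, a leucine-rich repeat protein of neurons, had 7.87 and 6.15 BPKM against 1.48 and 3.08 BPKM. Their log2 differences were -1.97 (SE 0.44) and -1.66 (SE 0.41).

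**Figure D2:**
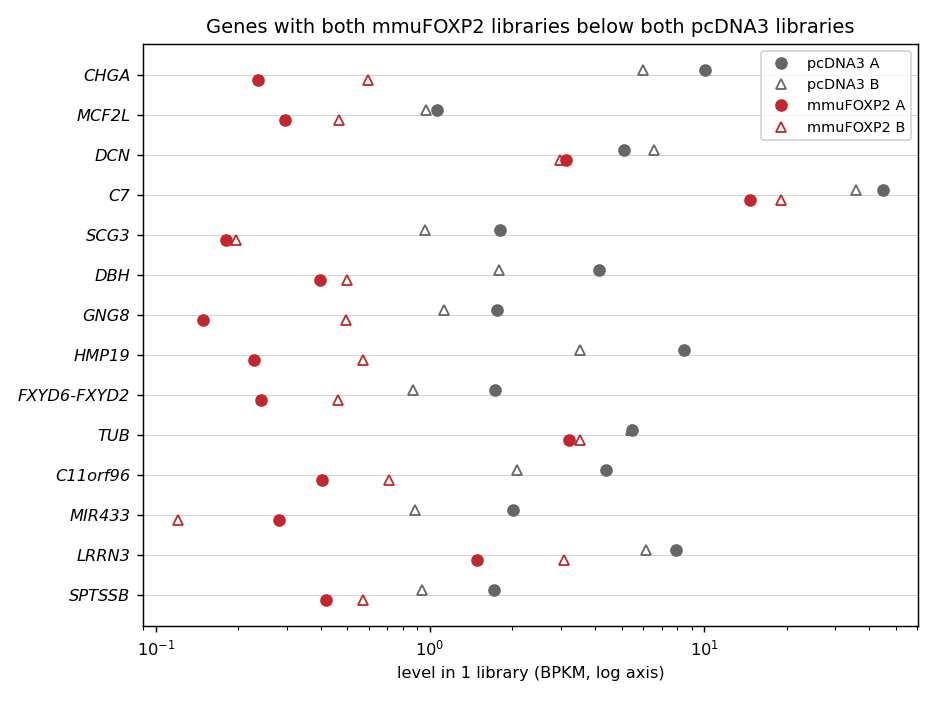
Levels in BPKM (log x axis) of 14 of the 15 lower genes that the naming rule took, 1 point per library, with pcDNA3 in grey and mmuFOXP2 in red, replicate A as filled circles and replicate B as open triangles. For CHGA the red points lie at 0.236 and 0.595 BPKM and the grey points at 6.00 and 10.1 BPKM, and in no gene do the colours overlap, as the rule required.

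The naming rule took 15 lower genes, those of smallest p with all 4 libraries apart and a group mean of at least 1 BPKM. Their log2 differences ran from -4.03 to -0.68 and their limma p from 4.97e-04 to 0.00443. In 14 of the 15 the difference was larger in round A than in round B, in 14 pcDNA3 A lay above pcDNA3 B, and in 13 mmuFOXP2 A lay below mmuFOXP2 B. The lower levels thus went with a spread between replicates in both conditions.

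The other lower genes were of several kinds. C7, the complement component, was the most abundant of the 15, with 45.0 and 35.8 BPKM with pcDNA3 and 14.7 and 19.1 BPKM with mmuFOXP2, a log2 difference of -1.26 (SE 0.26). DCN, the matrix proteoglycan decorin, had 5.11 and 6.54 BPKM against 3.14 and 2.99 BPKM. MCF2L, an exchange factor for small GTPases, had 1.06 and 0.966 BPKM against 0.296 and 0.467 BPKM. DCN and TUB, the tubby protein, had narrow differences of -0.89 (SE 0.18) and -0.68 (SE 0.16) log2 units. FXYD6-FXYD2, a readthrough transcript whose reads may be shared with its component genes, SPTSSB, a small subunit of serine palmitoyltransferase, and C11orf96 completed the protein-coding part, with log2 differences of -1.60, -1.22 and -2.29.

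MIR433 stood at 2.01 and 0.879 BPKM with pcDNA3, and at 0.282 and 0.121 BPKM with mmuFOXP2. Poly(A) libraries of fragmented RNA hold longer transcripts that cover a hairpin rather than the mature miRNA, so the value belongs to the RNA at that locus. The hairpin lies in the imprinted DLK1 and MEG3 region, at RTL1. RTL1, a retrotransposon-derived gene expressed from the paternal copy, had 1.32 and 0.799 BPKM against 0.417 and 0.286 BPKM. H19, the maternally expressed non-coding RNA of another imprinted region, had 14.1 and 5.61 BPKM with pcDNA3 against 1.01 and 3.58 BPKM with mmuFOXP2. Of 20 imprinted genes tested, 8 (40%) were apart and lower and 2 (10.0%) apart and higher, against 14.6% and 9.9% of all genes. The median was -0.158, and -0.06 over the 15 imprinted genes that reached 1 BPKM. GRB10, an imprinted adaptor of growth factor receptors, was on the higher side, with 0.359 and 0.366 BPKM against 0.830 and 1.40 BPKM, a log2 difference of 1.35 (SE 0.48).

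The list of adrenergic neuroblastoma identity had the lowest median of the 45 gene lists examined. Of 22 members tested, 15 (68.2%) were apart and lower against 14.6% of all genes, and 1 (4.5%) was apart and higher against 9.9%. An unadjusted limma p under 0.05 was found for 8 lower and 0 higher members, against 2.48% and 0.634% of all genes. The number that passed the test was 0, and the median was -0.622 log2 units beside 0 for all genes tested. The median was -0.672 in round A and -0.361 in round B. The list mean, centred on all 10 libraries over 19 members with a group mean of at least 1 BPKM, was 0.836 and 0.397 log2 units with pcDNA3 and -0.357 and -0.261 with mmuFOXP2. It was 0.064 and 0.173 with hsaFOXP2, -0.138 and -0.527 with ptrFOXP2, and -0.172 and -0.015 with cjaFOXP2. Every FOXP2 library thus lay below both pcDNA3 libraries in this mean, not those of mmuFOXP2 alone. Without pcDNA3 A the median was -0.398, with a pseudocount of 1 it was -0.389, and over members averaging 1 BPKM or more over the 10 libraries it was -0.335.

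Enzymes, a transporter and a granin of this list are given next. DDC, aromatic amino acid decarboxylase, had 1.57 and 0.643 BPKM with pcDNA3 against 0.109 and 0.157 BPKM with mmuFOXP2. SLC6A2, the noradrenaline transporter, had 2.77 and 1.17 BPKM against 0.110 and 0.464 BPKM. CHGB, a further granin, had 3.87 and 3.56 BPKM against 2.39 and 1.83 BPKM. TH, tyrosine hydroxylase, opens the synthesis of catecholamines. It is listed at 0 in both pcDNA3 libraries and in mmuFOXP2 A and was at 0.002 BPKM in mmuFOXP2 B. Of 12 identity markers, 9 reached 1 BPKM in all 4 libraries, and the summed level of all 12 was 323.6 and 305.2 BPKM with pcDNA3 and 287.4 and 233.0 BPKM with mmuFOXP2. The label of the line thus holds for 9 of its markers in all 4 libraries. CHGA and DBH reached 1 BPKM in both pcDNA3 libraries and in neither mmuFOXP2 library, and TH did so in none of the 4.

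Markers of the other cell states of such lines were present too. All 8 mesenchymal markers reached 1 BPKM in all 4 libraries, and their summed level was 2429 and 2488 BPKM with pcDNA3 and 3260 and 2497 BPKM with mmuFOXP2. TWIST1, a mesenchymal transcription factor, had 57.9 and 60.9 BPKM against 46.7 and 40.2 BPKM, and FOSL1, an AP-1 subunit of that state, overlapped between the groups with 32.7 and 16.9 BPKM against 40.6 and 31.1 BPKM. Of 20 members of the wider mesenchymal list, 3 (15.0%) were apart and higher and 2 (10.0%) apart and lower, close to the 9.9% and 14.6% of all genes, with a median of 0.130. Summed Schwann and melanocyte markers were 4.83 and 5.89 BPKM with pcDNA3 and 5.06 and 4.92 BPKM with mmuFOXP2, and SOX10 did not exceed 0.1 BPKM. In bulk RNA, fewer cells of a type and less RNA per cell cannot be told apart.

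Lists of secretion and synaptic genes also had negative medians. Among 16 granins and neuropeptides, 8 (50.0%) were apart and lower and 1 (6.2%) apart and higher, against 14.6% and 9.9% of all genes. Their median was -0.162, and -0.477 over the 12 that reached 1 BPKM. SCG5, the chaperone 7B2 of prohormone convertase, had 28.2 and 41.6 BPKM against 15.8 and 27.8 BPKM. Among 28 genes of synaptic vesicles and release, 12 (42.9%) were apart and lower and 3 (10.7%) apart and higher (median -0.261), against 14.6% and 9.9% of all genes. Of the 15 members that reached 1 BPKM, 4 were apart and lower and 3 apart and higher, with a median of -0.035. Of all genes at that level, 11.2% were apart and lower and 9.85% apart and higher. SYP, synaptophysin, had 1.58 and 1.06 BPKM against 0.452 and 0.439 BPKM, a log2 difference of -1.36 (SE 0.37). SYT4, a synaptotagmin, had 38.4 and 39.9 BPKM against 14.8 and 31.1 BPKM, and RAB3B, a vesicle GTPase, lay higher with 3.66 and 3.04 BPKM against 4.15 and 4.58 BPKM. The median of the vesicle list was -0.485 in round A and -0.084 in round B.

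Receptor lists had negative medians too, many of their members at low levels. Among 29 transmitter receptors, 15 were apart and lower and 1 apart and higher, with 10 lower and 0 higher at an unadjusted p under 0.05 (median -0.450), against 14.6% and 9.9% of all genes apart and 2.48% and 0.634% of all genes at that p. Only 8 of the receptors reached a group mean of 1 BPKM, with a median of -0.141. Of these 8, 2 were apart and lower, against 11.2% of all genes at that level. CHRNB2 and CHRNA3, subunits of neuronal nicotinic receptors, had 1.31 and 0.876 BPKM against 0.443 and 0.438 BPKM, and 5.96 and 3.45 BPKM against 2.00 and 3.025 BPKM. Among 17 receptors and ligands of the neurotrophin, GDNF and ALK group, 8 (47.1%) were apart and lower and 1 (5.9%) apart and higher (median -0.277), against 14.6% and 9.9% of all genes. Of these 17, 5 reached 1 BPKM and 2 of the 5 were apart and lower, against 11.2% of all genes at that level. RET, the GDNF family receptor, had 4.34 and 2.22 BPKM against 0.229 and 1.55 BPKM, the largest gap between the mmuFOXP2 replicates among the receptors named here.

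Of 18 tested HOX genes and cofactors, 9 (50.0%) were apart and lower and 1 (5.6%) apart and higher (median -0.189), against 14.6% and 9.9% of all genes. Of the 9 that reached 1 BPKM, 3 were apart and lower, against 11.2% of all genes at that level, with a median of -0.062. MEIS1, a HOX cofactor, had 5.78 and 6.48 BPKM against 4.67 and 5.17 BPKM, and HOXD9 had 2.55 and 2.26 BPKM against 1.42 and 2.21 BPKM. Of 31 genes of cholesterol and fatty acid synthesis, 10 (32.3%) were apart and lower and 1 (3.2%) apart and higher (median -0.152), against 14.6% and 9.9% of all genes. MVK, mevalonate kinase, had 4.34 and 4.41 BPKM against 3.50 and 3.05 BPKM. HMGCS1, an early enzyme of the pathway, had 10.7 and 14.1 BPKM against 8.99 and 9.02 BPKM. None of these genes passed the test, and the list medians were -0.061 in round A and -0.293 in round B.

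**Figure D3:**
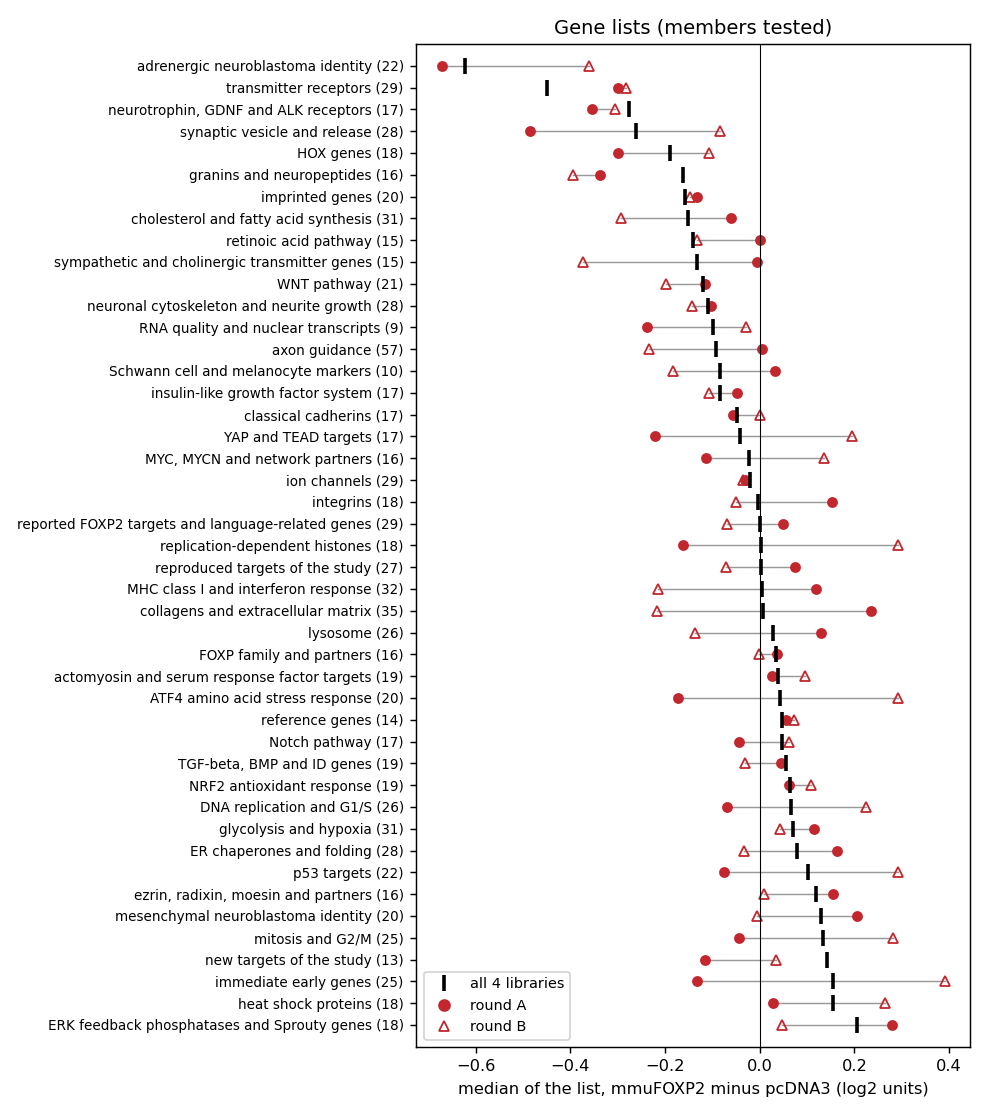
Median mmuFOXP2 minus pcDNA3 difference (x axis, log2 units) of 45 gene lists, with the number of members tested in brackets; the black bar is the value over all 4 libraries, the circle that of round A and the triangle that of round B. The adrenergic identity list lies at the low end with -0.672 and -0.361, and in 22 of 45 lists the rounds lie on opposite sides of 0.

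In the mitosis list the medians of the rounds had opposite signs. All 25 mitosis genes had a positive log2 difference (median 0.133), but 1 of them (4.0%, against 9.9% of all genes) was apart and higher. The median was -0.043 in round A and 0.282 in round B. Without pcDNA3 B the median of the mitosis list was -0.196, and without pcDNA3 A it was 0.441, so its sign changed with the control library left out. CENPE, the motor protein that holds chromosomes at the spindle, had 7.09 and 4.89 BPKM with pcDNA3 and 7.51 and 6.98 BPKM with mmuFOXP2. Of the 45 lists, 22 had medians of opposite sign in the rounds, 8 had both medians below -0.1, and 0 had both above 0.1. ER chaperones were apart and higher in 7 of 28 members (25.0%, against 9.9% of all genes) and apart and lower in 0 (against 14.6%; median 0.078, with 0.164 in round A and -0.033 in round B). HSPA5, the chaperone BiP, had 216.9 and 199.4 BPKM against 276.4 and 247.2 BPKM. SDF2L1, another ER protein of the folding machinery, had 17.7 and 16.0 BPKM against 28.5 and 19.5 BPKM.

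Genes reported as FOXP2 targets or linked to language stood close to all genes, of which 9.9% were apart and higher and 14.6% apart and lower, with 3 of 29 (10.3%) apart and higher and 4 (13.8%) apart and lower (median 0). The 27 reproduced targets of the study had 2 (7.4%) apart and higher and 5 (18.5%) apart and lower (median 0.002), and its 13 new targets 2 (15.4%) in each direction (median 0.142). The study drew up both lists with these libraries, so they are no independent evidence. BACE2, a beta-secretase homolog, had 3.16 and 2.44 BPKM with pcDNA3, 1.87 BPKM in mmuFOXP2 A and 9.21 BPKM in mmuFOXP2 B. MSN, the cytoskeletal linker moesin, had 57.1 and 44.1 BPKM against 42.3 and 72.6 BPKM, and FOXL1, a further forkhead factor, 0.596 and 0.424 BPKM against 0.478 and 2.65 BPKM. In all 3 genes mmuFOXP2 B lay above both pcDNA3 libraries and mmuFOXP2 A did not. Reference genes had a median of 0.047 with 0 of 14 apart, as in ACTB with 2103 and 1593 BPKM against 2419 and 1857 BPKM and GAPDH with 1137 and 882.1 BPKM against 1346 and 1045 BPKM.

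The naming rule also took 15 genes higher with mmuFOXP2. MIR3918 had 1.01 and 1.14 BPKM with pcDNA3 and 2.15 and 2.29 BPKM with mmuFOXP2, a log2 difference of 0.99 (SE 0.16, limma adjusted p = 0.664). As for MIR433, the value belongs to longer RNA over the hairpin. MIR4258 had 0.5001 and 0.232 BPKM against 1.14 and 1.24 BPKM, the largest log2 difference of the 15 named higher genes beside FOXP2, 1.53 (SE 0.37). SCD5, a stearoyl-CoA desaturase, had 6.84 and 6.60 BPKM against 9.565 and 9.07 BPKM. IL31RA, a cytokine receptor subunit, had 1.12 and 1.02 BPKM against 1.78 and 1.96 BPKM. CBL, a ubiquitin ligase that takes down receptor tyrosine kinases, had 4.44 and 5.28 BPKM against 7.92 and 7.62 BPKM. The log2 differences of SCD5, IL31RA and CBL were 0.47 (SE 0.11), 0.75 (SE 0.18) and 0.67 (SE 0.18).

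Structural and membrane proteins made up part of the rest. FLNC, the actin crosslinker filamin C, had 39.1 and 37.4 BPKM with pcDNA3 against 51.5 and 53.9 BPKM with mmuFOXP2, and MYOF, the membrane repair protein myoferlin, had 17.2 and 17.4 BPKM against 22.1 and 24.1 BPKM. SLC8A1, a sodium-calcium exchanger, had 4.07 and 4.51 BPKM against 5.396 and 6.49 BPKM. PLD1, a phospholipase D, had 3.11 and 3.23 BPKM against 4.20 and 3.97 BPKM. HSPB8, a small heat shock protein, had 3.43 and 3.28 BPKM against 4.75 and 4.32 BPKM. The transcription regulators ATF1 and BHLHE40, NRIP3 and the non-coding LINC00341 had log2 differences of 0.43, 0.47, 0.61 and 0.66. Over the 15 higher genes the differences ran from 0.36 to 1.53 and the limma p from 3.63e-04 to 0.0344, with adjusted p of 0.664 to 1. The difference was larger in round A in 7 of 15, against 14 of 15 lower genes.

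**Figure D4:**
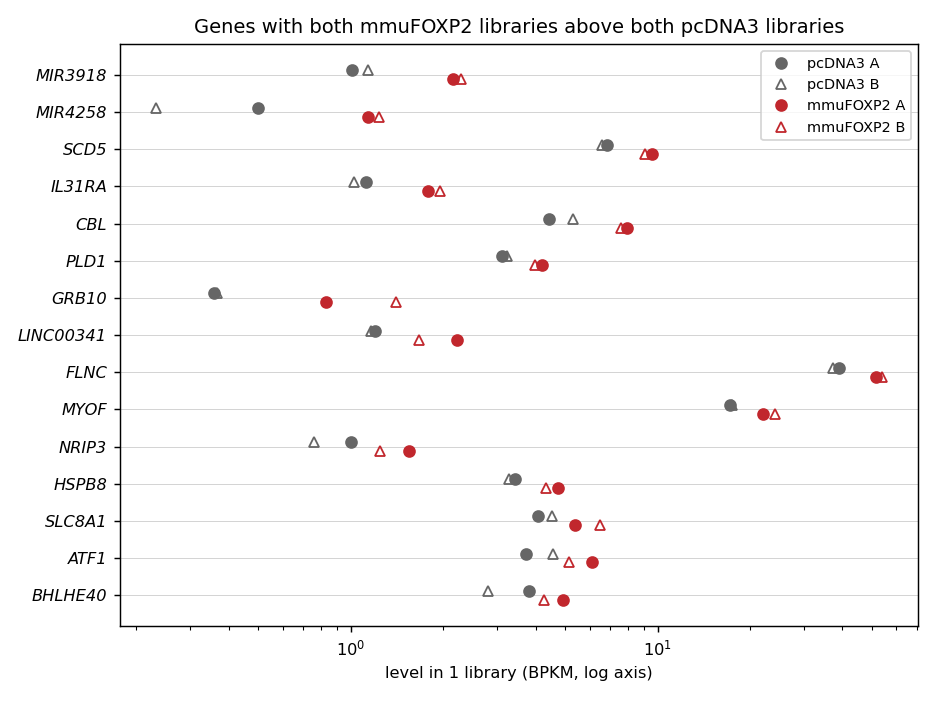
Levels in BPKM (log x axis) of the 15 higher genes that the naming rule took, 1 point per library, with pcDNA3 in grey and mmuFOXP2 in red, replicate A as filled circles and replicate B as open triangles. FLNC lies at 37.4 and 39.1 BPKM with pcDNA3 and at 51.5 and 53.9 BPKM with mmuFOXP2.

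The mmuFOXP2 libraries were also set against those of the other FOXP2 cDNAs. For mmuFOXP2 minus the mean of hsaFOXP2, ptrFOXP2 and cjaFOXP2, limma called 0 genes (0%, smallest adjusted p = 0.0802), and 822 genes (3.7%) had an unadjusted p under 0.05. Against ptrFOXP2 alone, whose cDNA shares all exchanged amino acids with the Rhesus monkey, it called 0 genes (0%, smallest adjusted p = 0.0799), and 461 genes (2.07%) had an unadjusted p under 0.05. The median of the adrenergic list was -0.036 against ptrFOXP2 and -0.239 against the 3 others. For CHGA, mmuFOXP2 minus ptrFOXP2 was -0.87 log2 units (SE 0.69, limma adjusted p = 1) with ptrFOXP2 levels of 1.56 and 0.369 BPKM. For CHGA this difference was close to its standard error. An unadjusted limma p under 0.05 against ptrFOXP2 was found for 1 of the 15 lower and 5 of the 15 higher genes, as in DCN with a difference of 0.63 (SE 0.18), MIR3918 with 0.91 (SE 0.16), LINC00341 with 0.90 (SE 0.23) and SLC8A1 with 0.61 (SE 0.17), none of which passed adjustment.

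Of the 15 lower genes, 8 had both pcDNA3 libraries above all 8 FOXP2 libraries, and 1, DBH, had both mmuFOXP2 libraries below the other 8. C7 had 93.2 and 142.7 BPKM with hsaFOXP2, 18.9 and 25.3 BPKM with ptrFOXP2, and 44.6 and 48.9 BPKM with cjaFOXP2. The human cDNA thus lay above pcDNA3 and the Rhesus monkey cDNA below it, and mmuFOXP2 minus hsaFOXP2 was -2.78 log2 units (limma adjusted p = 0.0861). Of the 15 higher genes, 3 had both pcDNA3 libraries below all FOXP2 libraries, and 4 had both mmuFOXP2 libraries above the other 8. MIR3918 was not of the latter kind, with 1.12 and 1.15 BPKM with ptrFOXP2 against 2.19 and 1.85 BPKM with hsaFOXP2.

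FOXP2 RNA varied among the 8 FOXP2 libraries from 0.932 BPKM in hsaFOXP2 B to 30.2 BPKM in mmuFOXP2 A. The lower genes were set against it, a choice made after their levels had been seen. From densitometry of Western blots, the paper reads FOXP2 protein as about equal in cells with the different cDNAs. The range here is thus one of RNA and is not known to hold for protein. FOXP2 RNA was 1.54 BPKM in hsaFOXP2 A, 2.09 and 21.8 BPKM in ptrFOXP2 A and B, and 14.5 and 18.3 BPKM in cjaFOXP2 A and B. CHGA was 3.24 BPKM in hsaFOXP2 B and 1.33 BPKM in hsaFOXP2 A, 1.56 and 0.369 BPKM in ptrFOXP2 A and B, and 0.559 and 0.321 BPKM in cjaFOXP2 A and B. The order of CHGA was nearly the reverse of that of FOXP2 (Pearson r = -0.946, exact permutation p = 9.92e-05, Spearman rho = -0.952, exact permutation p = 0.00114). Adjusted over the 30 named genes, these p were 0.00298 and 0.0171. The permutations, here and below, treated libraries as exchangeable, although the replicates of a cDNA are not independent of each other. The mmuFOXP2 pair had also served to choose the genes. The p over the 8 libraries therefore describe the order and are no test of a relation. Without the 2 libraries farthest from the median of FOXP2, both of them hsaFOXP2, r was -0.917.

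HMP19 and SCG3 also had a negative relation to FOXP2. Their r were -0.905 and -0.882 over the 8 libraries (adjusted exact permutation p = 0.0062 and 0.00707), and -0.897 and -0.824 without the hsaFOXP2 pair. By rank, the adjusted exact permutation p was 0.0171 for HMP19 and 0.0769 for SCG3. Over these 8 libraries the p describe an order only, since the mmuFOXP2 pair had served to choose the genes. No gene is taken to have passed by them. The r was negative in 14 of the 15 lower genes, DCN being the exception with 0.137. The adjusted exact permutation p of r was under 0.05 in 4 of the 15, again a description and no test. For DBH r was -0.696 (adjusted exact permutation p = 0.0992), and it was -0.410 without the hsaFOXP2 pair. C7 had r = -0.547, and 0.275 without that pair, so that its relation rested on the hsaFOXP2 libraries. Among the 15 higher genes r ran from -0.643 to 0.693 and 0 had an adjusted p under 0.05.

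The difference between mmuFOXP2 and pcDNA3 had served to choose these genes, so the relation was computed again over the 6 libraries of the other cDNAs. These 6 are not independent of the choice either, because their spread entered the limma p that ranked the genes. CHGA had r = -0.966 (exact permutation p = 0.00556, adjusted p = 0.0556), SCG3 -0.950 (p = 0.00417, adjusted exact p = 0.0556) and HMP19 -0.910 (p = 0.0139, adjusted exact p = 0.104). Their rho were -0.886, -0.943 and -0.886, and r without the 2 libraries farthest from the median, hsaFOXP2 B and ptrFOXP2 B, was -0.960, -0.987 and -0.882. After adjustment over 30 genes 0 passed 0.05. A round of transfection holds 4 FOXP2 libraries, too few for a value within rounds, and cDNA and FOXP2 level cannot be told apart where both replicates of a cDNA lie together, as with hsaFOXP2.

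**Figure D5:**
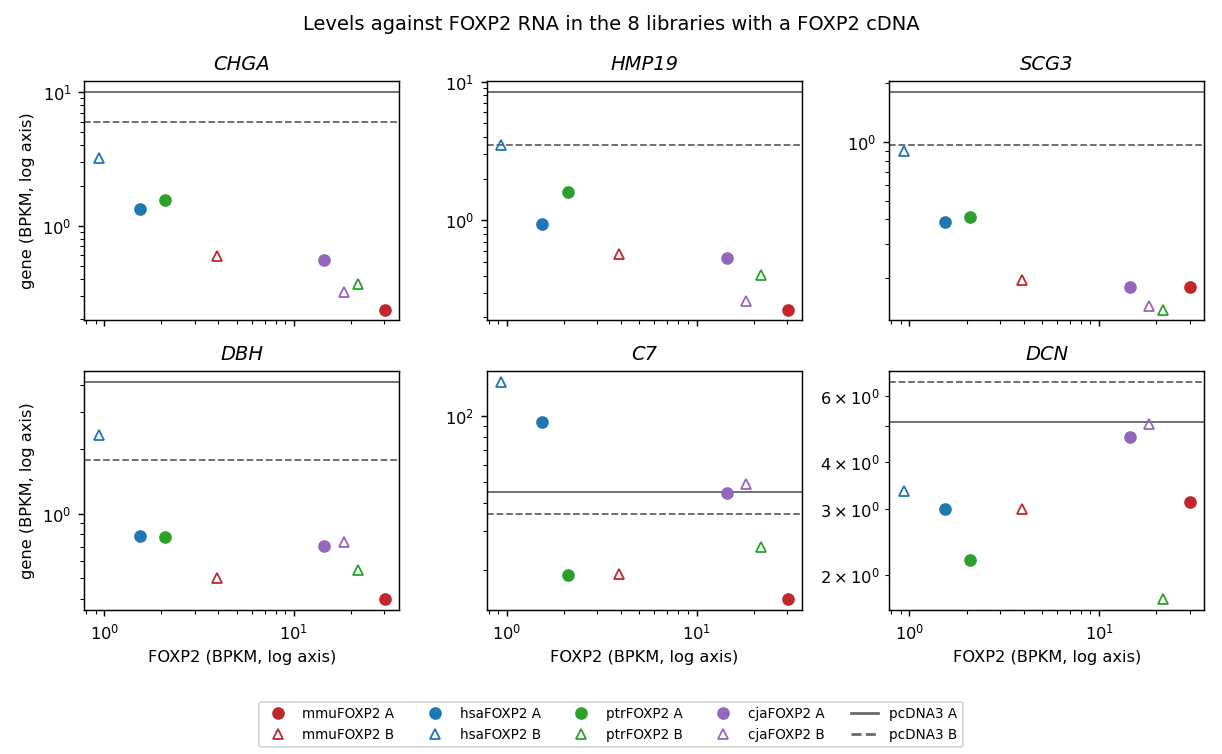
Level of 6 lower genes (y axis, BPKM, log) against FOXP2 RNA (x axis, BPKM, log) in the 8 libraries with a FOXP2 cDNA, coloured by cDNA, with replicate A as filled circles and B as open triangles; grey lines mark pcDNA3 A (solid) and B (dashed). CHGA runs from 3.24 BPKM at the lowest FOXP2 level to 0.236 BPKM at the highest, whereas C7 is set apart by the hsaFOXP2 libraries at 93.2 and 142.7 BPKM.

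Libraries were of similar depth, with relative depths of 1.00 to 1.27 estimated from the steps of low values, 20200 to 20794 genes above 0 and no library apart in these figures. mmuFOXP2 A had the fewest genes above 0 and the smallest relative depth. Of 9 nuclear and RNA quality transcripts, 1 (11.1%, against 14.6% of all genes) was apart and lower and 9 had a negative difference (median -0.098). MALAT1, for example, had 23.4 and 43.9 BPKM with pcDNA3 against 14.6 and 40.4 BPKM with mmuFOXP2. The part of these transcripts in the differences above was not tested. As no read counts are given, counting errors cannot be stated, and the number of reads behind levels under 1 BPKM is not known.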

How the data were processed

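Stably transfected SH-SY5Y cells gave 10 poly(A) RNA-seq libraries. The authors filtered reads, aligned them to hg19 with STAR (no version is named in the sources) and deposited BPKM values, an RPKM on bases instead of reads, for 80922 transcripts, of which 2 with an unknown symbol were left out. Samples were grouped by the transfection state in the labels.

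The mean BPKM per gene symbol on the log2(BPKM + 0.1) scale entered limma (version 3.58.1, R version 4.3.3) with all 10 libraries in 5 groups, with trend and robust moderation and Benjamini-Hochberg adjustment. The 22238 genes above 0 in at least 2 libraries entered. Correlations (exact pairings) used scipy 1.17.1, numpy 2.4.6 and pandas 2.3.3 under Python 3.11.15, figures were drawn in matplotlib 3.10.9, and the limma step was tested on simulated data. The replicates are separate transfections of 1 line, so p-values measure the spread between transfections. Absolute depth is unknown. Strand use in counting is not stated, so overlapping genes may share reads.

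Named genes are FOXP2, the 15 genes per direction of smallest p with all 4 libraries apart and a group mean of at least 1 BPKM (for lack of genes that passed), and up to 4 members per list. DQ591726 and TH stand outside this rule. Some genes that the rule took are counted but not reported here by name. The members and lists were chosen with earlier results of these data known. Promoters came from RefSeq (GRCh38.p14), where 10 of 15 lower genes matched. The labels tie replicate letters to transfection rounds, so libraries of one letter can be treated as pairs. The main fit left this pairing out, and its SE and p do not use it. The replicate block was run as an alternative. The A minus B differences of the conditions correlated at -0.334 to 0.506, above 0.1 in 6 of 10 pairs of conditions. They were below 0 in each pair that held cjaFOXP2. Alternatives were the pseudocount, filter, scaling, sum over transcripts, a fit of 4 libraries, the block, plain limma and leaving out each library. Added after seeing the data were those of the counts at 2-fold and the relation over 6 libraries.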

Additional observations from a re-analysis of the deposited data

Results flagged for a closer look

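In 6 named genes another FOXP2 cDNA lay on the other side of pcDNA3 from mmuFOXP2 in both of its replicates. The difference between the cDNAs was tested with limma and passed adjustment in none of these 7 comparisons. With hsaFOXP2 as the other cDNA, mmuFOXP2 was lower by -2.78 log2 units in C7 (adjusted p = 0.0861) and by -1.84 in MCF2L (adjusted p = 0.189), and higher by 1.01 in IL31RA (adjusted p = 0.399) and 0.61 in MYOF (adjusted p = 0.644). With cjaFOXP2, mmuFOXP2 was higher by 0.61 in SCD5 (adjusted p = 0.291), 0.79 in FLNC (adjusted p = 0.291) and 0.62 in MYOF (adjusted p = 0.291). Each comparison was of 2 libraries against 2.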

How the results depend on the processing

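The count of 0 higher genes was the same under all 13 alternatives. The count of lower genes was 0 with a pseudocount of 0.01, with a mean of at least 1 BPKM, with the sum over transcripts, in the fit of 4 libraries, with the replicate block and with plain limma, and it ranged from 0 to 2 when a library was left out (2 without mmuFOXP2 A, other genes than DQ591726). The count against the 3 other FOXP2 conditions was 2 with no filter and ranged from 0 to 2 when a library was left out. In the paired fit with the replicate block 0 genes passed in either direction. The adrenergic list median was -0.389 with a pseudocount of 1 and -0.335 with a mean of at least 1 BPKM, and ranged from -0.816 to -0.398 when a library was left out. With a mean of at least 1 BPKM, 1306 genes were apart and higher and 1461 apart and lower. With median-ratio scaling these counts were 2827 and 2947. Genes apart by at least 2-fold were 15 higher and 79 lower with median-ratio scaling, and 26 higher and 197 lower with the sum over transcripts. They ranged from 38 to 79 higher and from 102 to 245 lower when a library was left out, which makes the criterion easier to meet. The correlation of the rounds was 0.029 with a mean of at least 1 BPKM over 10 libraries and 0.1002 with no filter, and the share of one sign was 49.6% with median-ratio scaling. Of 57 named genes, 54 kept their sign throughout; when a library was left out, BACE2 ranged from -0.551 to 1.69, FOXL1 from -0.0632 to 2.19 and MSN from -0.247 to 0.531, with the reversed sign without mmuFOXP2 B and, in MSN, also without pcDNA3 B (-0.0433). The cause of these shifts was not tested. With 2 libraries a group and no read counts, differences of the size of the named higher genes lie at the limit of this comparison.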
